A study of Mus musculus with 8 samples.

Results

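Cytochrome P450 enzymes and the conjugating enzymes that follow them in drug and steroid metabolism were examined in embryonic small intestine of the mouse, at day 18.5. The members were all genes on the array with a P450 (Cyp), UDP-glucuronosyltransferase (Ugt), glutathione S-transferase (Gst) or sulfotransferase (Sult) symbol in the usual numbered form, each read by its probe with the highest mean intensity over the arrays. This gave 139 genes of the 36161 named on the array: 86 Cyp, 21 Gst, 17 Sult and 15 Ugt genes. Expression was compared between 4 control arrays and 4 arrays from embryos labelled Rfx6 fl/fl Ngn3-cre, in which both alleles of the endocrine transcription factor gene Rfx6 were floxed and Cre recombinase was driven by Ngn3, a gene of endocrine progenitors. The descriptions of mutant replicates 2, 3 and 4 name a different Rfx gene from their titles and source names, and the titles were followed here. Control replicates 1, 3 and 4 were Rfx6 fl/+ and control replicate 2 was Rfx6 fl/fl, and only the mutants are labelled as carrying Cre, so an effect of Cre and an effect of the deletion cannot be told apart. The RNA came from intestine with all of its cell types, so fewer cells of a type and less RNA per cell cannot be told apart. Each array carries its own number in its title, but the labels name no litter and do not state that the RNA came from separate embryos, so p-values measure the spread between these samples.

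P450 enzymes are membrane-bound haem proteins that insert oxygen into drugs, fatty acids, sterols, retinoids and steroid hormones, using electrons passed on by a reductase. Glucuronosyltransferases, sulfotransferases and glutathione S-transferases then attach glucuronic acid, sulfate or glutathione, which makes the products easier to excrete. In the intestine most of these enzymes are made by absorptive enterocytes, where they form a first barrier to compounds taken up from the gut, and many are controlled by nuclear receptors such as PXR, CAR, FXR and HNF4A.

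No member passed the test for a difference between mutant and control. With limma and Benjamini-Hochberg adjustment over 25354 tested genes, 0 of the 94 tested members had an adjusted p under 0.05, against 15 of all genes tested (0.0592%). The lowest adjusted p of a member was 0.314, for Cyp2j9. At an unadjusted p under 0.05, 15 of the 94 members (16.0%) were higher in the mutants and 0 were lower, where the same limit held 3.18% of all genes on the higher side and 2.15% on the lower side. In 13 tested members (13.8%) every mutant array lay above every control array, and in 0 tested members every mutant array lay below, against 3.04% and 1.62% of all genes tested. The difference, mutant minus control on the log2 scale, was above 0 in 61 of the 94 members (64.9%), against 57.1% of all genes. Its median was 0.08 over the members and 0.03 over all genes. Without mutant replicate 1, the array that stood furthest from the others, the medians were 0.03 and 0.0017, and 14 members were higher at an unadjusted p under 0.05, against 3.06% of all genes. The count of 0 lower members did not hold there: Gstt1 and Gstm5 were lower, by -0.29 and -0.27, with limma adjusted p of 0.442 and 0.520. Without control replicate 3 the members higher without overlap were 22, against 5.21% of all genes.

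**Figure D1:**
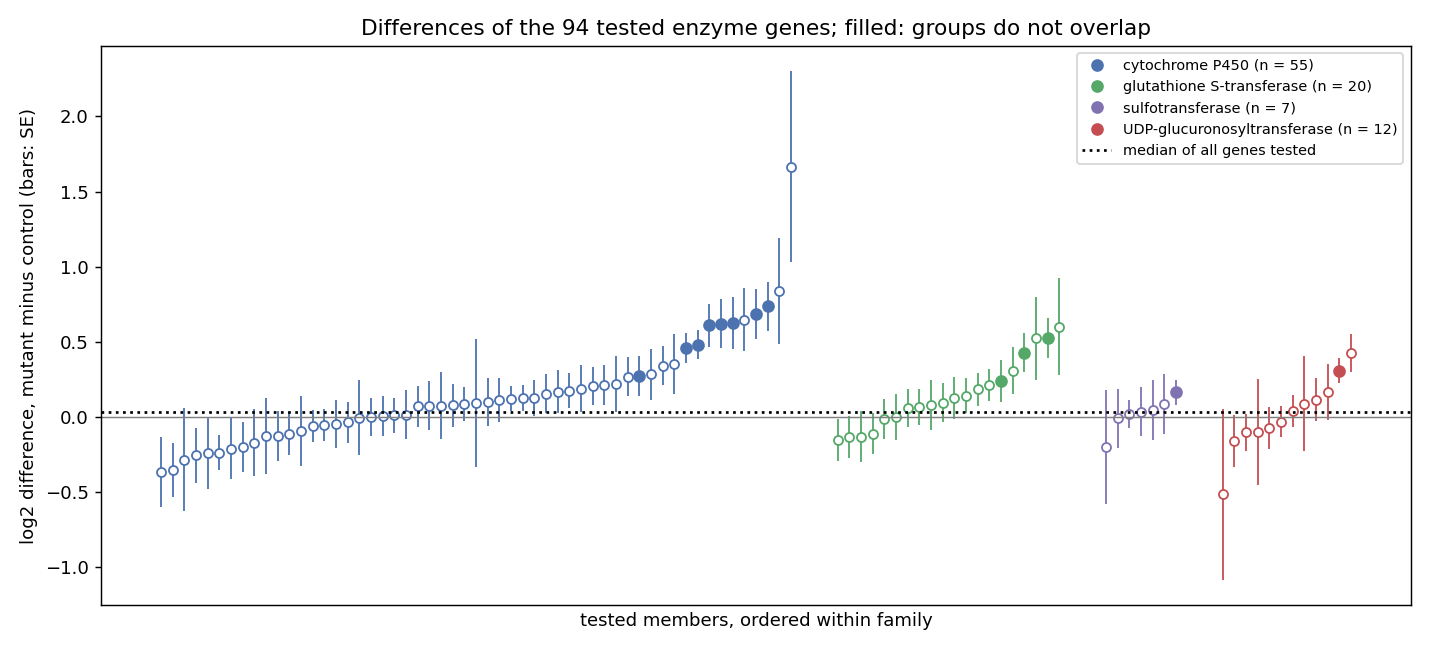
Mean log2 difference, mutant minus control, with its SE for the 94 tested members, ordered within each of the 4 families. Filled points are the 13 members whose groups did not overlap, all of them above 0, and the dotted line is the median of all genes tested (0.03).

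The other 45 members were too dim to test, since their probe was well above background on fewer than 4 of the 8 arrays. For 33 of them this held on no array, among them Cyp1a1 and Cyp1a2, which the aryl hydrocarbon receptor induces, Cyp7a1 and Cyp8b1 of hepatic bile acid synthesis, and Cyp26a1, which breaks down retinoic acid. Of the Cyp3a subfamily, which holds the main drug-oxidising P450 enzymes of the adult gut, 2 of 7 members were tested, Cyp3a11 and Cyp3a13. None of the 5 Cyp2b members was. By contrast 20 of 21 Gst and 12 of 15 Ugt members were tested, but 7 of 17 Sult members, since 6 of the 7 genes of the Sult2 subfamily were too dim. A group at background has only a bound, so no difference is given for these genes.

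Across the arrays the 75th percentile of intensity ran from 788 to 1027, with 59.7% to 69.9% of probes detected well above background. Mutant replicate 1 had a mean correlation with the other arrays of 0.978, against 0.990 to 0.991 for each of the rest. The Rfx6 probe, whose position relative to the deleted part is not given, read -3.32, -3.20, -3.48 and -2.93 in control replicates 1 to 4 and -5.52, -3.37, -3.02 and -3.02 in mutant replicates 1 to 4, so it does not check the labels. Of 8 endocrine cell markers, 6 were called lower in the mutants. All 8 enterocyte markers were above background on every array, 0 of them was called, and their median difference was 0.04.

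The Cyp2d genes were the subfamily with most members higher in the mutants. These enzymes are the mouse relatives of the human drug-oxidising enzyme CYP2D6. The array held 9 of them. Of the 7 tested, 6 had a difference above 0, against 57.1% of all genes tested, while Cyp2d9 and Cyp2d10 were too dim. In 4 of the 7 the mutants were higher without overlap, against 3.04% of all genes. The 4 genes lie in one cluster on chromosome 15, and their probes were compared because close copies can capture each other's RNA. The first 30 bases of each 60-base probe, on mm9, are as follows.
Cyp2d22, chr15:82204377-82204436: tctgtgtctaccatgcaccactttggcctg
Cyp2d11, chr15:82219647-82219706: cagcgctttagcatctcagtgcctgatgga
Cyp2d12, chr15:82388259-82388501: gagaaggccaagggaaatcctgagagcagc
Cyp2d26, chr15:82620575-82620634: ctatcagctctgtgcagtggctcgatagca
Over the 6 pairs of these probes, no ungapped alignment of at least 30 bases had more than 45.2% of bases the same, so the 4 readings came from unlike probe sequences, although a probe can still match the transcript of another copy. The interval of the Cyp2d12 probe is longer than the probe, and whether it spans an intron was not checked.

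All levels below are log2 intensity with the array's 75th percentile as 0, listed in the order of replicates 1 to 4. Cyp2d12 read 2.40, 2.16, 2.17 and 2.23 in controls and 3.36, 2.86, 3.10 and 2.59 in mutants. Cyp2d26 read 5.78, 5.47, 5.34 and 5.46 in controls and 6.52, 6.11, 6.35 and 5.80 in mutants. For both genes the groups did not overlap, but for Cyp2d26 the lowest mutant array and the highest control array lay close together. The difference was 0.74 (SE 0.16, n = 4 per group) for Cyp2d12 with a limma adjusted p of 0.418, and 0.69 (SE 0.17) for Cyp2d26 with an adjusted p of 0.539.

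Cyp2d11 read 3.56, 3.39, 3.43 and 3.51 in controls and 4.48, 3.94, 4.25 and 3.71 in mutants, a difference of 0.62 (SE 0.16, limma adjusted p = 0.613). Cyp2d22, known also as an enzyme of brain and other tissues outside the liver, read 0.41, 0.22, 0.18 and 0.23 in controls and 1.23, 0.73, 0.93 and 0.58 in mutants, a difference of 0.61 (SE 0.14, limma adjusted p = 0.488). In all 4 genes the mutant arrays had one order, with replicate 1 highest, then replicates 3, 2 and 4, and control replicate 1 was the highest control. Without mutant replicate 1 the 4 differences were 0.61, 0.58, 0.49 and 0.49 for Cyp2d12, Cyp2d26, Cyp2d11 and Cyp2d22.

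The other tested Cyp2d genes were less clear. Cyp2d13 averaged -3.92 ± 0.15 (SD, n = 4) in controls and -3.82 ± 0.31 in mutants, and Cyp2d40 averaged -4.64 ± 0.02 and -4.68 ± 0.28, with overlapping groups for both. Cyp2d34 had the largest difference of any member, 1.66 (SE 0.63, limma adjusted p = 0.821), but its probe was above background on 1 control and 3 mutant arrays only. Its values ran from -8.06 to -5.40 in controls and from -5.91 to -3.89 in mutants, so the groups overlapped and the size of the difference depends on readings at background.

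**Figure D2:**
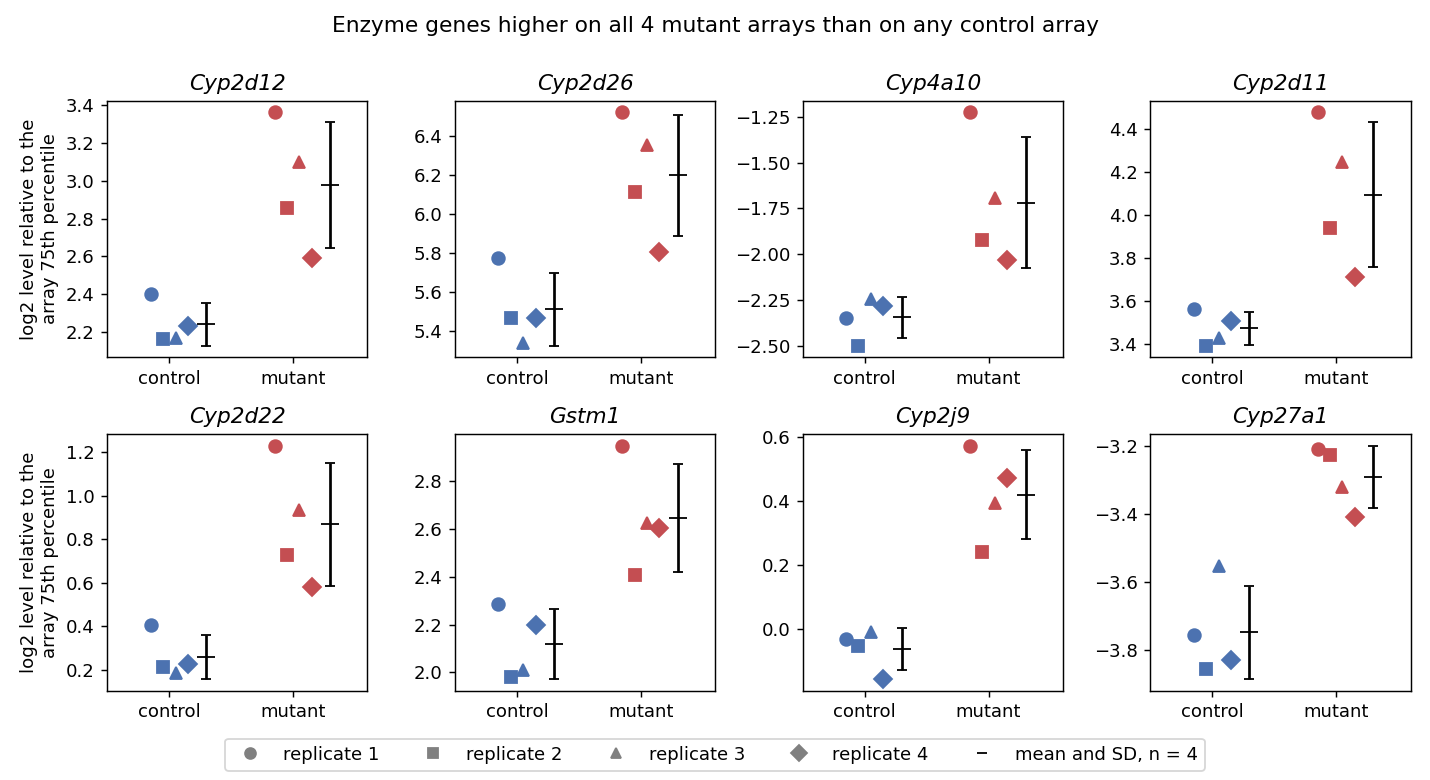
Log2 level relative to the array's 75th percentile on each of the 4 control (blue) and 4 mutant (red) arrays, with mean and SD at the right of each group, for the 8 members with the largest difference among those whose groups did not overlap. Each panel has its own vertical axis, and mutant replicate 1 is the highest array in every panel.

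Among P450 enzymes that act on fatty acids and eicosanoids, 8 of 9 listed genes were tested and 0 were called. Of these, 6 had a difference above 0 and the median was 0.19. In 3 the mutants were higher at an unadjusted p under 0.05, against 3.18% of all genes tested. Cyp2j9, an epoxygenase of the arachidonic acid pathway, read -0.03, -0.05, -0.01 and -0.16 in controls and 0.57, 0.24, 0.39 and 0.47 in mutants. The groups lay well apart relative to their spread, and the difference was 0.48 (SE 0.10, limma adjusted p = 0.314). The related Cyp2j6, the Cyp2j enzyme long known in mouse intestine, did not share this separation, at 2.69 ± 0.12 (SD, n = 4) in controls and 2.77 ± 0.16 in mutants.

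Cyp4a10, a fatty acid omega-hydroxylase that PPARalpha induces, read -2.34, -2.50, -2.25 and -2.28 in controls and -1.22, -1.92, -1.69 and -2.03 in mutants. Every mutant array lay above every control array, with a difference of 0.62 (SE 0.17, limma adjusted p = 0.666). Cyp4a31 read -3.20, -3.24, -2.75 and -3.15 in controls and -1.96, -2.58, -2.28 and -2.93 in mutants, a difference of 0.65 (SE 0.21, limma adjusted p = 0.821) with 1 mutant array inside the control range. These genes cannot be read as independent, because 44 of 47 aligned bases of their probes were the same. A stretch of 30 bases from each shows how alike they are, with the bases that differ in capitals.
Cyp4a10, probe chr4:115206200-115206259: atcttccctcctttctgcaataaagTtccC
Cyp4a31, probe chr4:115251553-115251612: atcttccctcctttctgcaataaagGtccA
Cyp4a14, another enzyme of this kind, was above background on no array. Of the Cyp4f genes, which hydroxylate leukotrienes and long-chain fatty acids, Cyp4f16 averaged 2.36 ± 0.11 (SD, n = 4) in controls and 2.70 ± 0.24 in mutants, a difference of 0.34 (SE 0.13, limma adjusted p = 0.821). Cyp4f14 averaged -0.10 ± 0.16 and -0.21 ± 0.25. The subfamily was split, with 4 of 7 tested genes above 0 and 3 below.

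Among sterol, bile acid and steroid P450 enzymes, 7 of 11 listed genes were tested, 0 were called and 6 had a difference above 0. Cyp27a1, the mitochondrial sterol hydroxylase of the alternative bile acid pathway, read -3.76, -3.86, -3.55 and -3.83 in controls and -3.21, -3.23, -3.32 and -3.41 in mutants. The groups did not overlap, and the difference was 0.46 (SE 0.10, limma adjusted p = 0.418). With normexp background correction this difference was 0.29, and with the deposited table of intensity values it was 0.27. Cyp7b1, which acts after Cyp27a1 in that pathway, averaged -0.07 ± 0.14 (SD, n = 4) in controls and -0.06 ± 0.22 in mutants. Cyp39a1, an oxysterol hydroxylase, leaned the other way at 0.55 ± 0.16 and 0.31 ± 0.16, a difference of -0.24 (SE 0.12, limma adjusted p = 0.821). Cyp17a1, a hydroxylase and lyase of steroid synthesis, had its highest value, 2.22, on mutant replicate 1, and the other 7 arrays lay between 1.04 and 1.67. Cyp11a1, which makes pregnenolone from cholesterol, had one of the 2 largest within-group spreads of the P450 genes, with an SD of 0.47 in controls and 0.89 in mutants. Of the 6 markers of steroid-producing cells, 4 were above background on every array and 2, Cyp11b1 and Mc2r, on none, with a summed level of 0.414 to 0.514 in controls and 0.387 to 0.596 in mutants.

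Of the enzymes that remove retinoic acid or act on vitamin D, 4 of 6 were tested. Cyp26b1, the retinoic acid hydroxylase, averaged 0.66 ± 0.11 (SD, n = 4) in controls and 0.73 ± 0.33 in mutants. Cyp2r1, a vitamin D hydroxylase, was among the steadiest P450 genes, at 0.63 ± 0.06 and 0.75 ± 0.05. Cyp24a1 and Cyp27b1, which inactivate and activate vitamin D, were above background on 4 and 6 arrays, and their groups overlapped. None of these 4 genes had an unadjusted p under 0.05.

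Among the drug-oxidising P450 genes of the fixed list, 9 of 13 were tested, with a median difference of 0.02. Of the 9, 1 was higher without overlap, Cyp2d26, against 3.04% of all genes tested. Cyp3a13, the Cyp3a enzyme of mouse intestine, averaged 3.23 ± 0.19 (SD, n = 4) in controls and 3.18 ± 0.05 in mutants. Cyp3a11 averaged -3.21 ± 0.09 and -3.21 ± 0.23, from a probe that the array file assigns to transcripts of 4 genes. Cyp2s1, an epithelial P450, averaged 2.87 ± 0.12 and 3.00 ± 0.20. Cyp2e1, the ethanol-induced P450, averaged -4.87 ± 0.24 and -4.65 ± 0.33. These 4 genes showed no separation of the groups. Cyp2c55, a P450 of the large bowel, averaged -2.80 ± 0.24 and -3.15 ± 0.31, a difference of -0.35 (SE 0.18, limma adjusted p = 0.821).

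The Cyp2c genes varied more between arrays than between the groups. These enzymes oxidise drugs and arachidonic acid, and 12 of the 13 on the array were tested, with 7 differences below 0, 5 above and a median of -0.13. Control replicate 2, mutant replicate 2 and mutant replicate 4 were the 3 lowest arrays for 6 genes by a clear gap. Cyp2c37 read -0.41, -1.47, -0.30 and -0.48 in controls and -0.46, -1.43, -0.42 and -1.49 in mutants. The 3 low arrays thus lay close together, and the gap to the next array was 0.95. The values of Cyp2c67 were 4.68, 3.86, 4.60 and 4.53 in controls and 4.53, 3.96, 4.54 and 3.97 in mutants, with a gap of 0.56. Those of Cyp2c39 were -0.48, -1.40, -0.53 and -0.79 in controls and -0.56, -1.26, -0.61 and -1.27 in mutants, with a gap of 0.47. In Cyp2c68, Cyp2c54 and Cyp2c29 the same arrays were lowest with gaps of 0.33, 0.31 and 0.28.

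Cyp2c70, the P450 that makes muricholic acids, ran in the opposite order. Its levels were 0.17, 1.26, -0.04 and 0.50 in controls and 1.22, 1.82, 0.48 and 1.71 in mutants, so that the same 3 arrays were highest, by 0.03. Its difference between the groups was 0.84 (SE 0.36, limma adjusted p = 0.821), with 1 of 4 controls and 2 of 4 mutants among the high arrays. Among those high arrays the mutants read 1.82 and 1.71 and the control 1.26. On the other arrays the mutants read 1.22 and 0.48 and the controls 0.17, -0.04 and 0.50. The part of this split in the difference was not tested. Mutant and control ranges overlapped, and no test was made of this order of arrays, which was noticed in the data. Control replicate 2 and mutant replicates 2 and 4 had 2 floxed alleles, as did mutant replicates 1 and 3, while control replicates 1, 3 and 4 had 1. The part of the floxed alleles in this order was not tested.

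The 3 arrays were set as the lowest 3 for Cyp2c37, and genes with the same 3 arrays apart were then counted. No other split of the arrays was counted, so the counts have no reference. Over all 25354 tested genes, 41 had these 3 arrays lowest or highest by a gap over 0.2, and 6 by a gap over 0.4. The 6 Cyp2c genes above were among the 41, and 3 of them were among the 6. Cyp2c37 was counted by construction, since it set the order. A further gene of the 6, Pyroxd2, lies 2573217 bases beyond the last Cyp2c probe of the cluster on mm9 and was highest on these arrays by a gap of 0.57. Of the 59 other tested genes within 2 Mb of the cluster, 0 had such a gap over 0.2 in either direction.

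**Figure D3:**
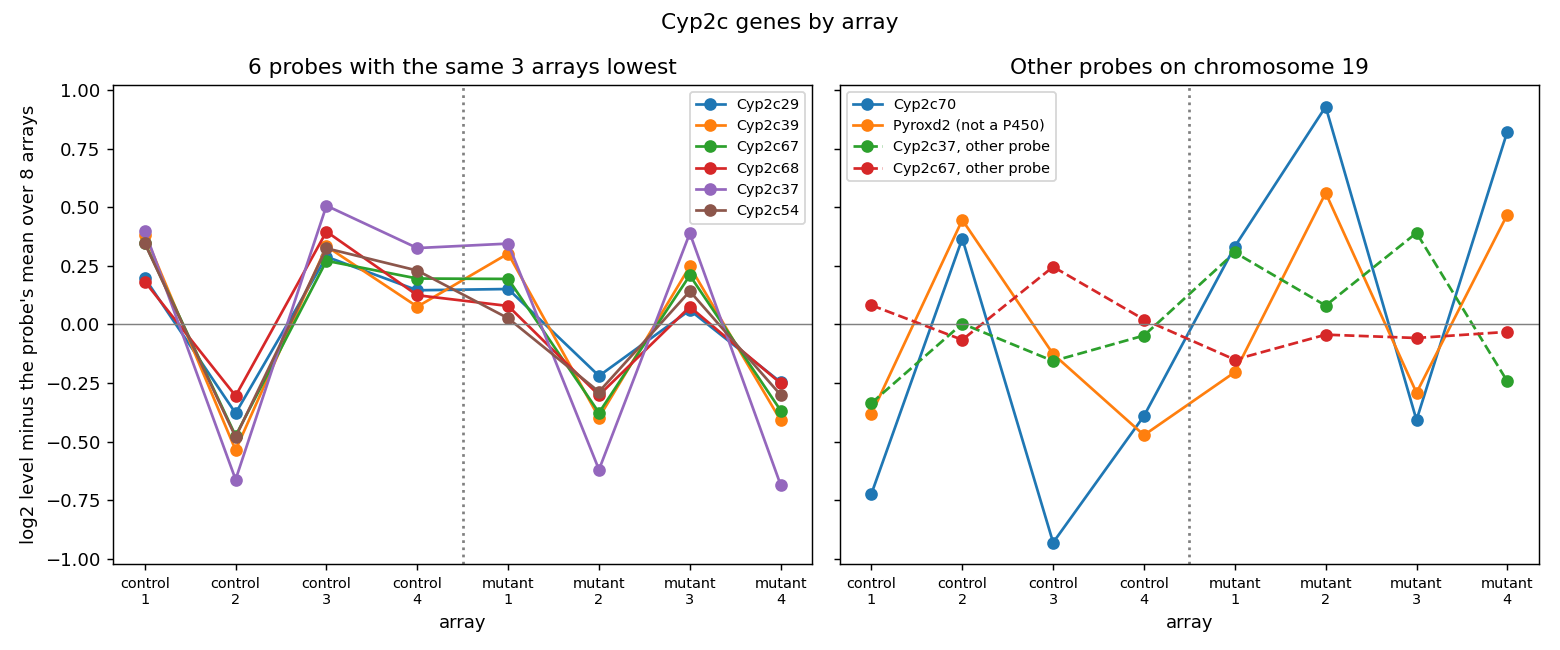
Log2 level minus the probe's mean over 8 arrays, by array, with a dotted line between control and mutant arrays. At left, 6 Cyp2c probes are lowest on control 2, mutant 2 and mutant 4. At right, Cyp2c70 and Pyroxd2 are highest on those arrays, and the second probes of Cyp2c37 and Cyp2c67 (dashed) show neither order.

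Second probes of these genes did not show the order. Cyp2c37 and Cyp2c67 each had another probe above background on every array, and neither had the 3 arrays lowest. The second Cyp2c37 probe read -4.09, -3.75, -3.91 and -3.80 in controls and -3.45, -3.67, -3.36 and -4.00 in mutants, and the second Cyp2c67 probe 1.80, 1.66, 1.97 and 1.74 in controls and 1.57, 1.68, 1.66 and 1.69 in mutants. The 30 first bases of the probes of these genes show that each pair reads separate stretches.
Cyp2c37, chosen probe, chr19:40084382-40084441: tggccactttctagatgggaatggaaagtt
Cyp2c37, other probe, chr19:40086467-40086526: cacactggacacactgacttttatccagtt
Cyp2c67, chosen probe, chr19:39683541-39683600: caatttccagatgtgctttatccctgtgga
Cyp2c67, other probe, chr19:39683429-39683488: aacacagtcccagaaattccatctatattc
The chosen probes of Cyp2c67 and Cyp2c68 are each assigned to transcripts of 3 genes by the array file, and those of Cyp2c29 and Cyp2c37 had 27 of 31 aligned bases the same. The genes of this cluster may therefore not be read separately from each other.

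Several Cyp2c genes share a short sequence match in front of their start. HNF4A, a nuclear receptor of enterocytes and hepatocytes, binds sites of the type TGGACTTTG or TGAACTTTG. On either strand, 9 of 110 member promoters (8.18%) held one of these in the RefSeq window of 250 bases before to 50 bases after the start, against 0.888% of 27025 promoters of all genes. Of the 9, 4 were Cyp2c genes of the cluster, including Cyp2c70, which ran against the others. These stretches, on GRCm38.p6, are written along the gene's strand with the match, here CAAAGTCCA, in capitals.
Cyp2c65, chr19:39060865-39060924: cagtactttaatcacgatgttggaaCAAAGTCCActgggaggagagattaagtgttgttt
Cyp2c67, chr19:39649133-39649192: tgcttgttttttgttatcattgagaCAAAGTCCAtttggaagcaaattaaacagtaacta
Cyp2c68, chr19:39741144-39741203: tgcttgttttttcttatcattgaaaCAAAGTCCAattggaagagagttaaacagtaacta
Cyp2c70, chr19:40187316-40187375: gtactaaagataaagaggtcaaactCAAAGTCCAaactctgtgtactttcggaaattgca
The match began 116, 125, 77 and 64 bases before the start of Cyp2c65, Cyp2c67, Cyp2c68 and Cyp2c70. The differences of these genes between mutant and control were 0.01, -0.17, -0.20 and 0.84, so the genes with a match did not share a direction. Of the 10 members with a promoter entry whose groups did not overlap, 0 held the HNF4-type letters. GCGTG, the core that the aryl hydrocarbon receptor binds, was in 20.9% of member promoters against 32.2% of all, and TGACNNNGC, the core of antioxidant response sites, in 9.09% against 12.4%. A match is a description of the letters and not of binding.

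Of the glutathione S-transferases, 20 were tested, 0 were called, and the median difference was 0.11, with 14 above 0. The mu-class genes Gstm1 and Gstm3 had groups that did not overlap. Gstm1 read 2.29, 1.98, 2.01 and 2.20 in controls and 2.95, 2.41, 2.62 and 2.60 in mutants, a difference of 0.53 (SE 0.13, limma adjusted p = 0.584). Gstm3 read 3.32, 2.97, 3.10 and 3.37 in controls and 3.88, 3.55, 3.51 and 3.53 in mutants, a difference of 0.43 (SE 0.13, limma adjusted p = 0.821). A second probe of each gene gave like values, 0.51 for Gstm1 and 0.40 for Gstm3, again without overlap. The chosen Gstm1 probe is placed by the array file on chromosome 5, whereas its second probe and the Gstm cluster lie on chromosome 3, so it is uncertain which locus the chosen probe reads.

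By their chosen probes the other mu-class genes differed less. Gstm2 averaged 3.80 ± 0.09 (SD, n = 4) in controls and 4.01 ± 0.16 in mutants, and Gstm7 -0.84 ± 0.11 and -0.66 ± 0.16, both among the steadiest Gst genes. Gstm5 lay on the other side, at 2.98 ± 0.06 and 2.85 ± 0.28. Other probes of Gstm2, Gstm4 and Gstm7 were higher without overlap, by 0.17, 0.31 and 0.22. The chosen probes of these genes gave 0.21, 0.14 and 0.18 with overlapping groups. A further probe of Gstm2 and the other probes of Gstm6 also had overlapping groups. Gstz1, an enzyme of tyrosine breakdown, had groups that did not overlap, with 2.83 to 2.95 in controls and 2.96 to 3.55 in mutants, but the difference of 0.24 (SE 0.14, limma adjusted p = 0.821) was 0.0954 without mutant replicate 1.

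The alpha-class genes Gsta1 and Gsta2, which are targets of the antioxidant response, were the most variable Gst genes. Gsta1 read 1.40, 1.33, 2.08 and 1.19 in controls and 1.97, 1.71, 1.67 and 3.05 in mutants. Gsta2 read 3.40, 3.14, 4.03 and 2.96 in controls and 4.03, 3.57, 3.55 and 4.47 in mutants. Both were highest on control replicate 3 among controls and on mutant replicate 4 among mutants, and both groups overlapped. The differences were 0.60 (SE 0.32) and 0.52 (SE 0.28), each with a limma adjusted p of 0.821. The 2 probes shared 46 of 50 aligned bases, as this stretch shows with the differing bases in capitals, so one transcript may be read by both.
Gsta1, probe chr9:78090411-78090470: tggcctctaatGgtttgcaattataaaaAG
Gsta2, probe chr9:78178856-78178915: tggcctctaatTgtttgcaattataaaaTA
The pi-class genes Gstp1 and Gstp2 averaged 4.13 ± 0.18 and 6.62 ± 0.07 (SD, n = 4) in controls, against 4.22 ± 0.18 and 6.69 ± 0.22 in mutants. Gsto1, of the omega class, averaged 6.33 ± 0.17 and 6.46 ± 0.23. For these 3 genes the difference was smaller than the spread within the mutants.

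Of the UDP-glucuronosyltransferases, 12 were tested, 0 were called and 6 had a difference above 0, with a median of 0.0048. Ugt2b35 read -0.21, -0.20, -0.26 and -0.18 in controls and 0.02, 0.08, 0.03 and 0.25 in mutants. Its groups did not overlap, with a difference of 0.31 (SE 0.09, limma adjusted p = 0.668), while its second probe gave 0.11 with overlapping groups. Ugt2a3, an enterocyte glucuronosyltransferase, read 0.51, 0.01, 0.12 and 0.24 in controls and 0.78, 0.60, 0.71 and 0.50 in mutants, where mutant replicate 4 and control replicate 1 met. Its difference was 0.43 (SE 0.13, limma adjusted p = 0.821). The other tested genes of the Ugt2b subfamily had overlapping groups. Ugt2b36 had a difference of 0.04, and Ugt2b34, Ugt2b5, Ugt2b37 and Ugt2b38 had differences of -0.16, -0.10, -0.07 and -0.03. Each of the latter 4 had its lowest array in mutant replicate 1. The Ugt2b5 and Ugt2b37 probes had 46 of 55 aligned bases the same.

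The Ugt1a genes share their 3' exons, so a probe there reads several of them together. The Ugt1a6b probe, assigned to transcripts of 4 genes, averaged 6.10 ± 0.18 (SD, n = 4) in controls and 6.22 ± 0.23 in mutants, and the Ugt1a10 probe, assigned to 2, averaged 2.21 ± 0.39 and 2.38 ± 0.14. Ugt1a6a averaged -2.70 ± 0.41 and -2.80 ± 0.71. Ugt3a1, which uses N-acetylglucosamine in place of glucuronic acid, had one array apart: control replicate 2 stood at -1.93, and the other 7 arrays between -4.99 and -3.68. None of these 4 tested genes had groups that did not overlap. The other Ugt3a gene, Ugt3a2, was above background on no array.

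Of the sulfotransferases, 7 were tested, 0 were called and the median difference was 0.03. Sult1a1, the phenol sulfotransferase, read 0.46, 0.54, 0.54 and 0.50 in controls and 0.76, 0.72, 0.55 and 0.68 in mutants. The groups did not overlap but nearly met at their edges, and the difference was 0.16 (SE 0.08, limma adjusted p = 0.821). Sult1b1, an intestinal enzyme that acts on thyroid hormones and phenols, was the steadiest gene beside Sult1a1, at 5.44 ± 0.13 (SD, n = 4) in controls and 5.47 ± 0.06 in mutants. Sult1d1 averaged 3.16 ± 0.20 and 3.21 ± 0.40, and Sult1c2 -4.26 ± 0.27 and -4.46 ± 0.86. Sult2b1, the cholesterol sulfotransferase, averaged 0.86 ± 0.10 and 0.90 ± 0.34. In these 4 genes the mean difference was within the spread between arrays.

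How far a second probe bore out the first could be seen for 26 tested members with 30 other probes above background. The 2 probes gave differences of the same sign in 20 of 30 comparisons. The median gap between them was 0.086 and the largest 0.55, for Cyp2c37. Cyp4a10 read 0.62 by the chosen probe and 0.68 and 0.40 by the others, both with overlapping groups. Cyp20a1, an orphan P450 whose chosen probe had groups that did not overlap (difference 0.27), read -0.12 by its second probe.

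**Figure D4:**
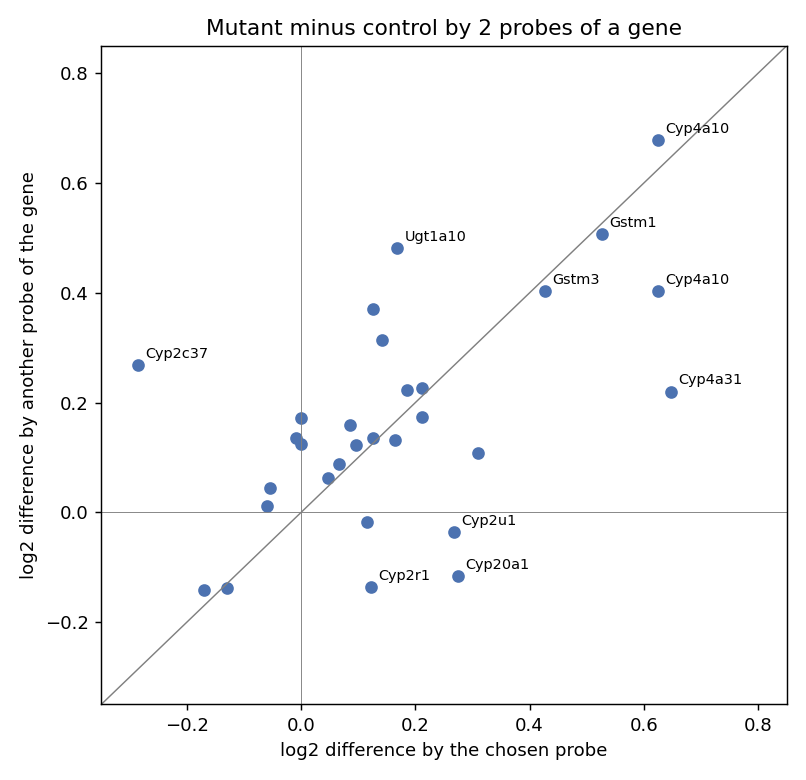
Log2 difference, mutant minus control, by the chosen probe (horizontal) and by another probe of the same gene (vertical), for 30 other probes in 26 genes, with a line of equal values. Gstm1 and Gstm3 lie near the line, and Cyp2c37 and Cyp20a1 have opposite signs.

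The regulators and partners of these enzymes, from lists of general knowledge, were also read from the fit. All 15 listed regulators were tested and 0 were called, with a median of 0.04. Of the 15, 1 was higher and 0 were lower without overlap, against 3.04% and 1.62% of all genes tested. This was Nr1i3, which encodes the drug-sensing receptor CAR, at 1.55 in controls and 2.02 in mutants. Its difference was 0.47 (SE 0.12, limma adjusted p = 0.589). Nr1i2, which encodes PXR, had a difference of 0.16 (SE 0.12), Hnf4a of 0.02 (SE 0.13), Ppara of 0.19 (SE 0.15) and Ahr of -0.19 (SE 0.12), and their groups overlapped. Of 16 tested genes for electron partners and cofactor supply, 0 were called and 4 had groups that did not overlap. Over all genes tested, 3.04% were higher and 1.62% were lower without overlap. Papss2, which makes the sulfate donor, and Cyb5r3 lay higher, by 0.25 and 0.22. Cyb5b and Ugp2, which feeds UDP-glucose to the glucuronosyltransferases, lay lower, by -0.24 and -0.25. The P450 reductase gene Por differed by 0.05 (SE 0.11). Of 22 tested genes for other drug-handling enzymes and transporters, 0 were called. Mgst2, a microsomal glutathione transferase, had the largest difference, 0.62 (SE 0.18, limma adjusted p = 0.795), and the carboxylesterase gene Ces2a was higher without overlap by 0.44 (SE 0.14, limma adjusted p = 0.821). Nat2, an arylamine N-acetyltransferase gene, was lower without overlap, with a difference of -0.18 (SE 0.10, limma adjusted p = 0.821).

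Markers of other cell types were set beside the members that separated. All 6 tested pancreatic acinar markers of 8 listed had a difference above 0, against 57.1% of all genes tested. In 3 of these 6 the mutants were higher without overlap, against 3.04% of all genes. Of the 3, Cela2a was above background on 4 arrays only, with controls at -8.26 to -7.50 and mutants at -5.11 to -2.12. It could pass the filter through its high mutant arrays alone, so it adds no support to either count. Of the 8, 4 were above background on every array, and the summed level of the 8 was 1.03 to 2.24 in controls and 2.88 to 14.3 in mutants. Amy2a5, encoding pancreatic amylase, read -5.14, -6.64, -1.88 and -4.31 in controls and 1.09, 0.16, 1.83 and 3.29 in mutants. Mutant replicate 4 was highest of the mutants for Amy2a5 and lowest of the mutants for the 4 Cyp2d genes. Gsta1 and Gsta2 were highest on the same arrays as Amy2a5, control replicate 3 among controls and mutant replicate 4 among mutants. The acinar markers did not share this order among controls. Cpa1 and Ctrb1 were also highest on control replicate 3, but Cel and Cela1 were highest on other controls. Cela2a, Prss1 and Pnlip were above background on 4, 2 and 2 arrays only, so their order among controls is not read. Among mutants all of these but Pnlip were highest on replicate 4. The part of acinar RNA in the enzyme differences was not tested. Of 8 hepatocyte markers, 5 were above background on every array, and the summed level was 149 to 216 in controls and 140 to 169 in mutants. Most of this sum was Afp and Serpina1a, which averaged 6.91 and 5.81 in controls, while Fgb, the next highest, averaged 1.55. Alb, the albumin gene, ranged from -5.35 to -2.63 in controls and from -7.18 to -2.59 in mutants. The hepatocyte marker Afp, which fetal intestine also expresses, was lower without overlap by -0.52 (SE 0.15, limma adjusted p = 0.710).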

How the data were processed

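Total RNA, 100 ng per sample, was labelled with cyanine 3 in a one-colour protocol, per the labels' protocols. The authors deposited linear spot intensity from Feature Extraction 10.10.1.1, per the file headers, read on array design 028005 with coordinates on mm9 and not normalised between arrays. They also deposited a table of intensity values whose processing is not given in the sources used here, and it served as an alternative. The processed intensity is background-corrected within each array. The 8 arrays shared 1 slide and 1 scan.

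From these, log2 processed intensity minus the log2 75th percentile of each array was computed over non-control spots, without spots marked as outliers (117 to 157 per array), and spots of a probe were averaged. One probe per gene name was kept, that with the highest mean over the arrays. Genes were tested where it was well above background, in at least 50% of its spots, on at least 4 of 8 arrays, counted without regard to group. The moderated, two-sided test of limma 3.58.1 (R 4.3.3), without covariates, compared mutants with controls, and p-values were adjusted by Benjamini-Hochberg across every tested gene, after the fit was tested on simulated data. Of the 139 member probes, 138 matched a RefSeq accession in GRCm38.p6 and 137 had the same symbol there (Cyp2c44 is now Cyp2c23). Gene names are those of the array. For 16 members the array file lists transcripts of several genes for the probe. Promoters are from RefSeq, GRCm38.p6. Exons of mm9 were not analysed here.

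The members and gene lists were chosen with earlier results of these data known. Named are up to 8 members in each direction with the largest difference among those whose groups did not overlap, the 2 members with the largest and the 2 with the smallest pooled SD of each family, and members of the role lists. Pyroxd2, Cyp2f2, Cyp20a1, Cyp4a31 and the Cyp2c and Cyp2d genes outside this rule were chosen after their values were seen, as were the marker genes singled out. In 18 alternatives the background correction, scaling, source of values, filter, probe choice, array weights, slide row, replicate number and each array were varied. The number of arrays limits the precision.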

Additional observations from a re-analysis of the deposited data

Results flagged for a closer look

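Of 54 groups of 4 arrays examined, in the members named by rule and those whose groups did not overlap, 4 had 1 array far from the other 3. In groups not chosen by their values, Dixon's test at the limit used flags about 1 in 20 by chance, or 2.7 of 54. These members were chosen by their spread or separation on the same arrays, so that rate does not carry over to them. Gstm3, a mu-class glutathione S-transferase, stood at 3.88 on mutant replicate 1, against 3.51 to 3.55 on the other mutants. Gstz1, an enzyme of tyrosine breakdown, stood at 3.55 on the same array, against 2.96 to 3.00. Cyp2j13 stood at 0.80 on mutant replicate 4, against 0.63 to 0.66. Cyp11a1, the first enzyme of steroid synthesis, stood at -4.31 on mutant replicate 4, against -2.75 to -2.44. In the first pair of genes the array apart was the one with the lowest mean correlation to the others, and without it both genes kept a difference above 0 (0.34 for Gstm3 and 0.0954 for Gstz1).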

How the results depend on the processing

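The count of 0 called members held in all 18 alternatives, and the 13 members whose groups did not overlap kept their direction in all of them, as did 59 of the 94 tested members. The count of called genes over the whole array was 15, and it was 27 with normexp background correction and 41 with array weights; the cause was not tested. Leaving out each array in turn gave 10 to 22. With the replicate number as a block it was 7, but the numbers did not pair the samples: same-numbered arrays correlated at -0.09 to 0.09, and 1 of 4 controls correlated best with its own number. Members higher without overlap ranged from 14 to 22 when each array was left out, an alternative chosen after seeing the data. Fewer arrays per group make overlap rarer in all genes too, and their share was then 3.83% to 6.71%, against 3.04% in the main analysis. Members higher at an unadjusted p under 0.05 ranged from 12 to 18 over the alternatives, also chosen after seeing the data. The share of all genes ranged from 2.05% to 5.46%. The lower count, 0 in the main analysis, reached 3 with array weights and without control replicate 2. The median difference of the members was 0.03 to 0.12. Dim probes limit the account, since 45 members had no test.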

Other observations

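Cyp2f2, a P450 best known from airway club cells, had the lowest difference of the tested P450 genes, at -0.37 (SE 0.23, limma adjusted p = 0.821). It read -2.83, -3.08, -3.59 and -2.72 in controls and -3.07, -3.54, -3.87 and -3.19 in mutants, with overlapping groups. With array weights its difference was -0.56 (SE 0.20, limma adjusted p = 0.439).

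Of 5 smooth muscle markers, 5 had a difference above 0 and 0 were called, with a median of 0.21. Of 4 endothelial markers, 4 lay above 0 and 0 were called, with a median of 0.15. Goblet markers had a median of 0.02 over 6 tested genes.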
